A study of Mus musculus with 2 samples.

Results

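The interval of chromosome 6 (mm9) from 122545001 to 122680000 holds the genes Gdf3, Dppa3 and Nanog in that order. It was examined for 5-hydroxymethylcytosine (5hmC) in E14 cells, a mouse embryonic stem cell line. Members were all listed cytosines of the deposited table within these 135 kb, chosen by position alone: 1318 of 13025343 cytosines in the series, with 18909 reads. The study comprised 2 libraries of 1 group, labelled replicates 1 and 2 and made from E14 genomic DNA at passage 12, with no other genotype or treatment given. The table holds 1 count per cytosine for both libraries together, so no value below has a replicate error, no test between samples was made, and intervals cover counting error only. The reads passed through PCR without molecular identifiers, so copies of 1 molecule can be counted more than once and true errors are wider. Nothing in the labels says that the libraries came from separate cultures.

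5hmC is made when the TET enzymes oxidise 5-methylcytosine, the methyl mark found mainly at CG dinucleotides, and it is common in embryonic stem cells at active genes and enhancers. Nanog is a homeodomain transcription factor that sustains naive pluripotency. Dppa3, also called Stella or PGC7, is a maternal factor that protects methylated DNA from oxidation in the zygote, and Gdf3 is a secreted ligand of the TGF-beta family that signals through Nodal receptors. Enhancers that act on Nanog are known in mouse embryonic stem cells at about 5 kb and 45 kb before and 60 kb after its start. In the assay, glucosylated 5hmC directs the enzyme AbaSI to cut at a short distance from it, and the table lists reads under cytosines so placed.

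The limits of the genes were approximate: 122555001 to 122560000 for Gdf3, 122576001 to 122580000 for Dppa3 and 122657501 to 122664650 for Nanog. Dppa3 and Nanog are transcribed toward higher coordinates and Gdf3 toward lower ones. In the RefSeq gene order of GRCm38.p6 the neighbours outside the 3 genes are Apobec1, which encodes an RNA-editing cytidine deaminase, and Slc2a3, which encodes a glucose transporter. Their limits in mm9 were not used here, so whether either reaches into the interval was not examined. Of the 3 genes, 1 (Nanog) matched the RefSeq promoter table. Its window from 250 bases before to 50 after the upstream start is shown because the listed cytosines leave a gap around the approximate start of the gene. It is the plus strand of GRCm38.p6 chr6:122707239-122707538, a build whose positions do not carry over to mm9. Capitals mark the CG dinucleotides, the main but not the only context in which 5hmC was listed.
Nanog promoter: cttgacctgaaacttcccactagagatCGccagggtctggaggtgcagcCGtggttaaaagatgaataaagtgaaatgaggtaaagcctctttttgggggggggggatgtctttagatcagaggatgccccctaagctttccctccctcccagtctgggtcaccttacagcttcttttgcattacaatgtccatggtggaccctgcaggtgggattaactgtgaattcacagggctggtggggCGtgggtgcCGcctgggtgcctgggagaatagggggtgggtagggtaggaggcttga

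This window had 4 CG dinucleotides, against a median of 7 and quartiles of 3 and 20 over 32851 promoter windows of the same length. The window of the second Nanog start, which overlaps it, also had 4. The letters TTTGCAT, then any base, then ACAATG, the composite octamer and Sox element that Oct4 and Sox2 are known to bind, were found in both Nanog windows. Of all the 32851 windows, 2 held them (0.00609%, both strands searched). These 2 are the Nanog windows themselves, which overlap and share the same copy, so they are not separate occurrences. In the mm9 data the listed cytosines nearest to the approximate Nanog start were at 122657175 and 122657787, 326 bases before and 286 bases after it. The gap of 612 bases between them ranked only 34 among the 1317 distances of the interval. On chromosome 6, 7.64% of distances were at least as long, and these covered 60.8% of its span, so a gap of this length is common. A promoter window of this shape lies wholly inside that gap for any start from 75 bases before to 236 bases after the approximate one. A cytosine without a line in the table is not a measured 0, since the lowest listed count is 2, and the CG content and mappability of mm9 were not used here. RefSeq also lists pseudogene copies of Nanog and Dppa3 on other chromosomes, and how reads with several matches were handled is not stated.

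The question the interval can answer is where listed 5hmC lies relative to the 3 genes and how dense it is beside the surrounding chromosome. The interval had 140.1 reads and 9.76 listed cytosines per kb. The 500 kb flanks had 105.4 reads per kb on the left and 63.9 on the right, chromosome 6 had 57.2 and the 19 autosomes 72.2. The interval thus had 1.65 times the read density of both flanks (counting interval 1.63 to 1.68) and 2.45 times that of chromosome 6. Among 1084 windows of 135 kb tiled along chromosome 6, 970 had fewer reads and 113 had more. The median window had 4766 reads. The interval therefore lay in the upper part of the chromosome's distribution without being extreme.

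The excess over the flanks did not begin at the edges of the interval. Within 250 kb of the edges the left side had 153.6 reads per kb and the right side 117.2, which is above and below the interval. From 250 to 500 kb the values were 57.2 and 10.6, and from 500 kb to 1 Mb they were 10.5 and 7.30. In steps of 50 kb, 5 of the 10 steps within 250 kb were above the interval. The highest step, from 122295001 to 122345000, had 228.0 reads per kb. Against flanks of 250 kb the ratio was 1.03, and against flanks of 1 Mb it was 2.99. The 3 genes thus sat within a broader stretch rich in listed 5hmC, and the ratio to the flanks depended on how far the flanks reached past it. The left flank also held a run of 51 bins of 1 kb with no listed cytosine, from 122098001 to 122149000.

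**Figure D1:**
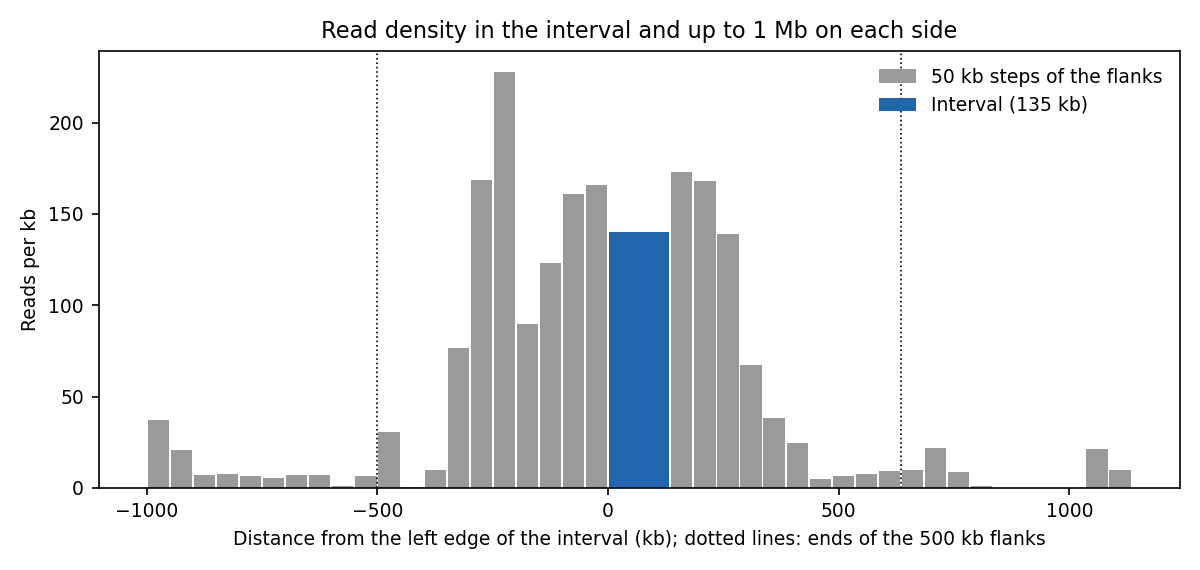
Reads per kb (y axis) in steps of 50 kb up to 1 Mb on each side (grey) and in the 135 kb interval (blue), by distance from the left edge in kb. The interval at 140.1 reads per kb lies among neighbouring steps of 123.3 to 173.1 within 150 kb, while beyond 350 kb the highest step has 37.1.

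In bins of 1 kb, listed 5hmC covered the interval more evenly than the wider flanks. The median bin had 109 reads, against 25 in the flanks, 15 on chromosome 6 and 18 on the autosomes. Of 135 bins, 89 (65.9%) reached 50 reads, which is 2 times the flank median. The share was 39.5% in the flanks, 30.1% on chromosome 6 and 34.0% on the autosomes. Bins with no listed cytosine numbered 5 (3.70%), against 26.8% in the flanks, 29.2% on chromosome 6 and 27.3% on the autosomes. This contrast also moved with the flanks, of which 8.4% of bins were empty within 250 kb and 45.3% within 1 Mb. With flanks of 250 kb as the reference, 34.8% of the bins in the interval and 32.6% of the flank bins reached 2 times the flank median, so this excess too rested on the outer flanks. The 5 empty bins were 2 in the Gdf3 gene (122558001 to 122560000), 1 between Gdf3 and Dppa3 (from 122565001), 1 between Dppa3 and Nanog (from 122631001) and 1 in Nanog (122658001 to 122659000). No run of 3 or more empty bins occurred.

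**Figure D2:**
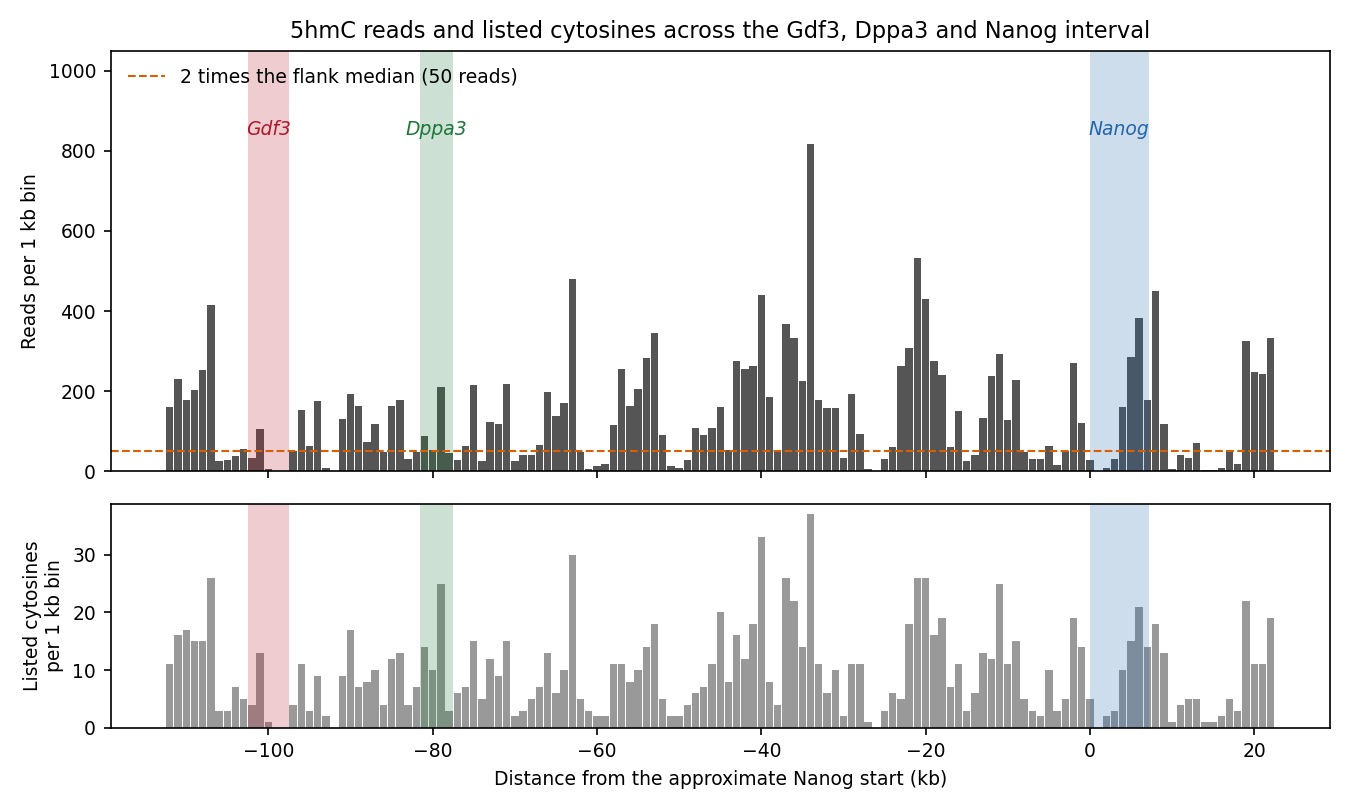
Reads (upper panel) and listed cytosines (lower panel) per 1 kb bin against distance from the approximate Nanog start in kb, with the 3 genes shaded and 2 times the flank median (50 reads) dashed. Reads peak at 816 in a bin between Dppa3 and Nanog and fall to 0 beside the Gdf3 start and just after the Nanog start.

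Gdf3 had the lowest density of the 3 genes. Its 5 kb held 18 listed cytosines and 144 reads, or 28.8 reads per kb against 144.3 in the rest of the interval, a ratio of 0.200 (counting interval 0.168 to 0.235). The lack lay at the start of the gene. The longest distance between neighbouring listed cytosines in the whole interval, 3251 bases from 122557239 to 122560490, reached from 489 bases before the Gdf3 start to 2762 bases into the gene. Of the 1317 distances in the interval it ranked 1. On chromosome 6, 0.847% of distances were at least as long, but these covered 22.4% of its span. All 18 cytosines of Gdf3 lay in the 2.5 kb toward its end, at 57.6 reads per kb, a division chosen after the values were seen. The richest cytosine of the gene was the minus-strand CG at 122555922 with 19 reads, and the richest bin, 122556001 to 122557000, had 13 cytosines and 105 reads. Before the start, there were 4 cytosines and 50 reads in the nearest kb and 89.6 reads per kb over 5 kb.

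Dppa3 had many listed cytosines with few reads each. Its 4 kb held 52 cytosines, or 13.0 per kb, the highest density of the 3 genes. The median was 6 reads per cytosine (quartiles 4 and 8), against 11 in the rest of the interval. Reads therefore came to 396, or 99 per kb, a ratio to the rest of 0.701 (0.633 to 0.774), while the ratio of cytosines was 1.35 (0.999 to 1.78). No gap marked its start. The nearest listed cytosines lay 115 bases before and 101 bases after it, and the bin from 122576001 to 122577000 that holds the start had 14 cytosines and 89 reads. Its first 2 kb had 24 cytosines and 141 reads, and its last 2 kb had 28 and 255, divided likewise. The richest bin was 122578001 to 122579000 with 25 cytosines and 210 reads, and the richest cytosine the plus-strand CG at 122579023 with 34 reads. The kb before the start had 7 cytosines and 49 reads.

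Nanog combined a poor 5' part with a rich 3' part. Over its 7.15 kb the gene had 61 cytosines and 946 reads, or 132.3 reads per kb, close to the 140.5 of the rest of the interval (ratio 0.942, 0.881 to 1.01). Its first 4 kb held 8 cytosines and 63 reads, or 15.8 per kb. The remaining 3.15 kb held 53 cytosines and 883 reads, or 280.3 per kb. The division at 4 kb was chosen after the values were seen. CG dyads are the 2 facing cytosines of a CG on opposite strands. They were listed on both strands in 0 of 8 cases in the first part (0 to 36.9%). In the second part this held for 20 of 30 (66.7%, 47.2 to 82.7). The first range includes the 34.8% of chromosome 6. As the parts were divided by where reads were few or many, this contrast is not separate from the division.

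At the Nanog start the bin from 122657001 to 122658000 had 5 cytosines and 27 reads, and the next bin had none. The distance from 122657854 to 122659120, 1266 bases inside the gene, ranked 6 among those of the interval. The richest bin of the gene, 122663001 to 122664000, had 21 cytosines and 382 reads. The richest cytosine of the gene lay in the bin before it, the plus-strand CG at 122662965 with 46 reads. The rich part ran past the end of the gene: the 6 consecutive bins from 122661001 to 122667000 all reached 50 reads and held 91 cytosines with 1575 reads. Within them the bin from 122665001 to 122666000, just beyond the gene, had 451 reads.

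**Figure D3:**
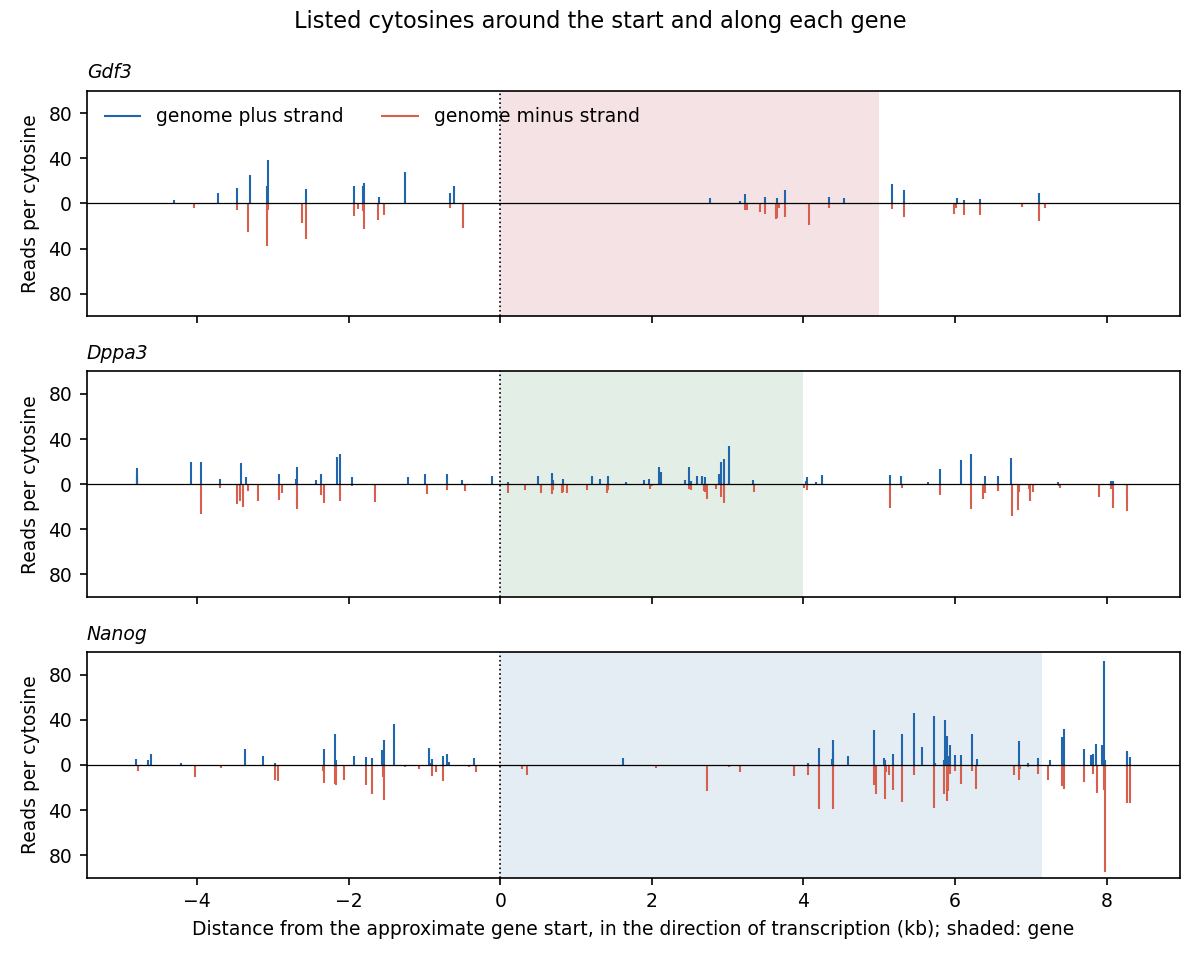
Each line is a listed cytosine, with its reads upward for the genome plus strand and downward for the minus strand, against distance in kb from the approximate start of each gene in the direction of transcription (gene shaded). Lines are missing after the Gdf3 start over 2762 bases, short across Dppa3 (median 6 reads) and sparse over the first 4 kb of Nanog, then dense and tall.

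The 5 kb before the start had 48 cytosines and 497 reads, or 99.4 per kb, against 157.1 averaged over the whole stretch from Dppa3 to Nanog. The nearest kb had 14 cytosines and 93 reads. The 2 kb window centred 5 kb before the start, at the proximal enhancer position (122651501 to 122653500), had 12 cytosines and 77 reads, or 38.5 per kb. Its reads per kb were 0.272 times the rest of the interval (0.214 to 0.340), while the ratio of cytosines per kb was 0.611 (0.315 to 1.07), which includes 1. Relative to the flanks it had 0.455 times the reads and 0.991 times the cytosines per kb. None of its 11 CG dyads was listed on both strands (upper limit 28.5%, exact interval). This limit treats the dyads as separate. The cytosines at 122652353 and 122652375, in different dyads, are an opposite-strand pair with 6 reads each, which may be the same reads. The window had a median of 5 reads per cytosine, and whether low counts left facing strands unlisted was not tested. The 2 kb window centred 45 kb before the start (122611501 to 122613500) had 30 cytosines, or 15 per kb, and 124.0 reads per kb with a median of 6 reads per cytosine. The window centred 60 kb after the start (122716501 to 122718500), which lies in the right flank, had 15 cytosines and 60.5 reads per kb with a median of 5. It had 0.715 times the reads per kb of the flanks but 1.24 times the cytosines. At all 3 enhancer positions the median cytosine had 5 or 6 reads, against 11 over the interval and 10 in the right flank. The genes Gdf3 and Dppa3 and the kb before the Nanog start also had a median of 6. A low count per cytosine was therefore not particular to the enhancer positions. Whether these windows match the enhancers to the base was not tested.

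**Figure D4:**
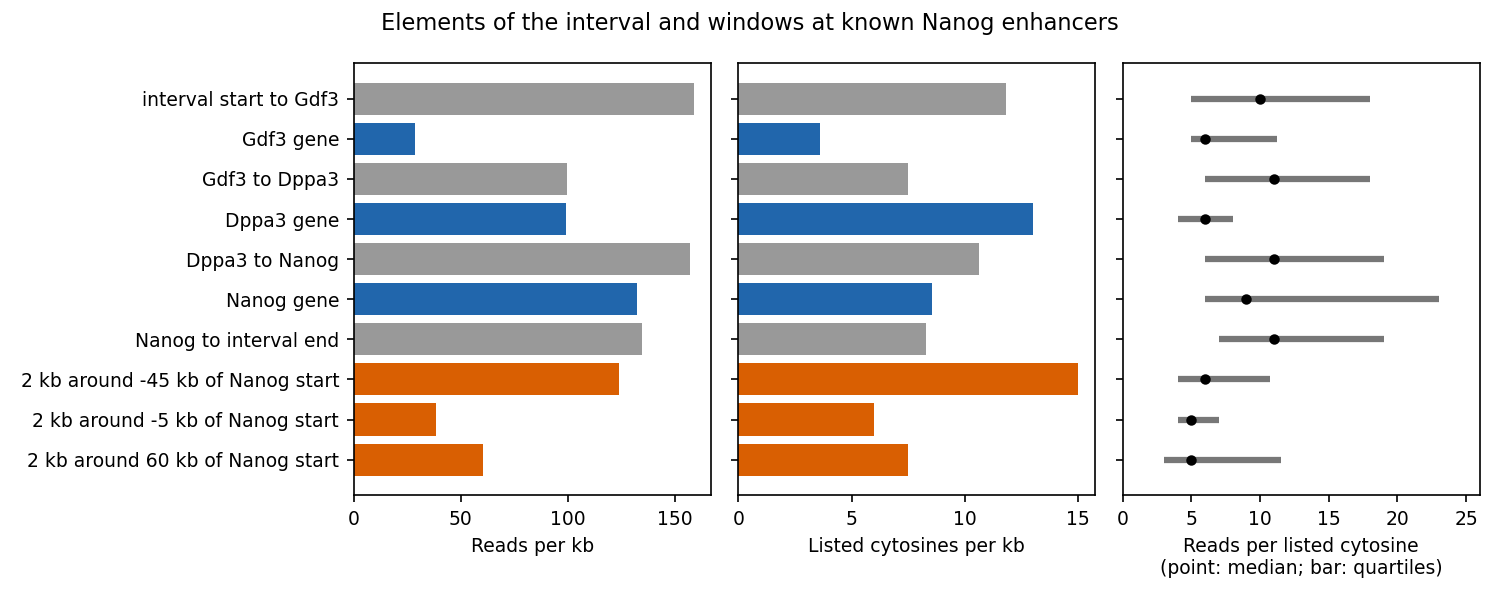
Reads per kb, listed cytosines per kb and reads per listed cytosine (point median, bar quartiles) for the 3 genes (blue), the stretches between them (grey) and 2 kb windows at known Nanog enhancer distances (orange). Gdf3 is lowest in reads at 28.8 per kb, Dppa3 has 13.0 cytosines per kb with a median of 6 reads, and the stretch between Dppa3 and Nanog has 157.1 reads per kb.

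Most of the listed 5hmC lay between Dppa3 and Nanog. These 77.5 kb, or 57.4% of the interval, held 822 cytosines and 12176 reads, which is 64.4% of its reads and 157.1 per kb. The longest unbroken run of bins with at least 50 reads spanned 18 kb, from 122609001 to 122627000 (-48.5 to -30.5 kb of the Nanog start). It held 269 cytosines and 4224 reads, or 22.3% of the reads in 13.3% of the length, and included the window at the distal enhancer position. That window itself had 124.0 reads per kb, well below the 234.7 of the run as a whole. The longest such runs in the left and right flanks had 21 and 10 bins. A second run of 9 bins, from 122633001 to 122642000, had 134 cytosines and 2318 reads. The stretch from the interval start to Gdf3 had 158.7 reads per kb, that from Gdf3 to Dppa3 99.8 and that after Nanog 134.5.

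The 10 richest bins held 24.6% of the reads, with 345 to 816 reads and 18 to 37 cytosines each. Of these, 7 lay between Dppa3 and Nanog, a stretch that makes up 57.4% of the interval. The richest, 122623001 to 122624000 (-34.5 kb), had 37 cytosines and 816 reads, and its top cytosine supplied 11.8% of them. On chromosome 6, 94 of 146515 bins (0.0642%) had at least as many reads, 2 of them in the flanks. The richest bin of the left flank, 122343001 to 122344000, had 932 reads, and that of the right flank, 122774001 to 122775000, had 836. The others between Dppa3 and Nanog began at 122636001 with 533 reads, at 122594001 with 481, at 122617001 with 439, at 122637001 with 429, at 122620001 with 367 and at 122604001 with 345. The bin from 122550001, before Gdf3, had 414 reads. Bins with more listed cytosines had more reads (Spearman 0.92 across the 135 bins of 1 pooled table, a description only). The richest bin thus did not owe its count to 1 cytosine. Its reads were not evenly spread, however. Its cytosines at 122623807 and 122623828 had 96 and 94 reads, and those at 122623600 and 122623623 had 60 each. Both are pairs on opposite strands, 21 and 23 bases apart, in which the same reads may stand at both cytosines.

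Single cytosines reached 115 reads, against a highest count of 32783 on chromosome 6. Only 0.199% of the listed cytosines of chromosome 6 had at least 115 reads, and 0.308% had at least 94. The 5 richest were all CG: 122634596 (plus strand, 115 reads), 122634618 (minus, 114), 122623807 (plus, 96), 122665483 (minus, 95) and 122623828 (minus, 94). Those at 122634596 and 122634618 stood 22 bases apart on opposite strands, and those at 122623807 and 122623828 stood 21 bases apart. The cytosine at 122665483 had a plus-strand partner with 92 reads at 122665461, 22 bases away. Of the 17 cytosines with at least 60 reads, 10 had an opposite-strand cytosine 21 to 23 bases away. These 10 formed 5 pairs, and in each pair the counts were within 10% of each other. AbaSI is known to cut between modified cytosines on opposite strands at about this spacing. Over the whole interval, opposite-strand pairs 21 to 25 bases apart had exactly equal counts in 26 of 36 cases where both cytosines had the class 2CG. This held in 16 of 19 where both had 2CH. Not all pairs are separate. The plus-strand cytosine at 122614140 (16 reads) stood in pairs with 12 and 4 reads, and that at 122655316 (27 reads) with 9 and 18. No such share is given for the flanks, chromosome 6 or cytosines below 60 reads. These counts are therefore not shown to be particular to the interval or its richest cytosines. Where the same reads stand at both cytosines, read totals count them more than once. With a weight of 0.5 for these classes the ratio of the interval to its flanks was 1.68. Partners of other classes kept full weight, among them 122634596 (CGCH) and 122665483 (1CG). This weight therefore does not remove all repeated counting.

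At the 5 richest cytosines the facing strand of the CG had at most 5 reads. It had 5 at 122634596 and 122623828 and 4 at 122665483, and was not listed at 122634618 and 122623807. The partner at 122665461, with 92 reads, had 22 on its facing strand. Other rich dyads were more even, with 49 and 69 reads at 122592294 and 57 and 49 at 122549302. Of the 848 CG dyads of the interval, 397 (46.8%, 43.4 to 50.2) were listed on both strands, against 44.0% in the left flank, 36.5% in the right flank and 34.8% on chromosome 6. Among these 397 dyads the strands differed by more than 3-fold in 95 (23.9%, 19.8 to 28.4), and on chromosome 6 in 21.7%. Dyads listed on both strands had a median of 28 reads and those listed on 1 strand a median of 9. Of the genes, Dppa3 had 12 of 40 dyads on both strands, Gdf3 5 of 13 and Nanog 20 of 38.

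Cytosines outside CG, called CH, clustered at the left end of the interval. They numbered 73 (5.54%, 4.37 to 6.91), against 5.14% in the left flank, 2.73% in the right flank and 5.69% on chromosome 6. They had a median of 6 reads against 11 at CG. Gdf3 and Dppa3 had 0 of 18 and 0 of 52, which allows shares of up to 18.5% and 6.85% (exact intervals), and Nanog had 3 of 61 (4.92%), so a lower share in the genes was not detectable at this depth. Of the 73, 24 lay in the first 7 kb of the interval, before Gdf3, a block chosen after the values were seen. In the stretch from the interval start to Gdf3, CH cytosines made up 20.3% of the listed cytosines (13.5 to 28.7), against 4.08% in the rest. Several of these stood in opposite-strand pairs of class 2CH with equal counts, such as 25 and 25 reads at 122550261 and 122550284. The same reads may stand at both, while the range treats each cytosine as separate and is therefore too narrow. The highest CH count was 31 reads at 122550393, a minus-strand CA. By the class codes of the table, 1CG made up 38.5% of the cytosines (35.9 to 41.2), above the 35.0% of chromosome 6. The class 2CG made up 6.15% (4.91 to 7.58), slightly below 7.64%, and CGCH 49.8%, against 51.7%.

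The median listed cytosine of the interval had 11 reads (quartiles 6 and 18), against 10 in the flanks and 9 on chromosome 6 and the autosomes. The median distance between neighbouring listed positions was 24 bases, against 31 in the flanks and 42 on the chromosome. The denser signal of the interval thus came mainly from more listed cytosines per kb (2.13 times chromosome 6) and less from more reads at each. Besides the gap at Gdf3, the longest distances without a listed cytosine were 1816 bases from 122564308 between Gdf3 and Dppa3 and 1781 bases from 122551038 before Gdf3.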

How the data were processed

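Genomic DNA (100 ng) was glucosylated, cut with AbaSI, ligated to a biotinylated adapter and amplified for 16 cycles, per the labels' protocols. Per the submitters' processing notes, CASAVA 1.8.2, Bowtie (no version given) and mm9 were used. No source used here gives the assignment of reads to cytosines, the minimum for listing or the joining of the libraries. The authors deposited raw counts of reads for each cytosine as whole numbers, with both libraries in 1 column (176006227 reads in all).

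Start positions were counted from 0 in the table and are given here counted from 1. The interval, the 500 kb flanks, 1 kb bins and approximate gene limits come from the rule that defined the members. Gene limits are rounded, so a bin beside a start may be off by some bases. Reads and cytosines were summed per bin and element, with empty bins as 0. A bin was high at 2 times the median flank bin (25 reads). Shares have exact Clopper-Pearson intervals at 95%, and ratios of densities have exact binomial ones. The direction of the genes is textbook knowledge. Named were the 3 genes, the 10 richest bins, the 5 richest cytosines, the 3 longest distances, runs of 3 or more empty bins, the richest bin and cytosine of each gene, the bins with the gene starts, the fixed elements and the richest bin of each flank. Divisions of genes, 50 kb steps, opposite-strand partners and the 7 kb block of CH cytosines were chosen after seeing the values. The members, lists and rules were chosen with earlier results of these data known. Functions were tested on simulated sites. Values were recomputed with a minimum of 5 or 10 reads, with each cytosine counted once, the top 0.1% of counts (above 168 reads) left out, a weight of 0.5 for the classes 2CG and 2CH, CG only, other flanks, bins and gene limits. Python 3.11.15, numpy 2.4.6, pandas 2.3.3, scipy 1.17.1 and matplotlib 3.10.9 were used. mm9 sequence and annotation were not used here, so no density per CG was computed.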

Additional observations from a re-analysis of the deposited data

How the results depend on the processing

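No paired analysis was possible because the table joins both libraries of a single group, which also allowed no fit without a library. Ratios and shares were compared with their counting intervals, bin shares within 1.5 times. The read density of the interval relative to its flanks was 1.68 with at least 10 reads, 1.61 with each cytosine counted once, 1.03 with flanks of 250 kb and 2.99 with flanks of 1 Mb. The share of high bins was 34.8% with flanks of 250 kb. Bins with no listed cytosine made up 7.41% and 15.6% with at least 5 and 10 reads (flanks 33.1% and 45.1%), 11.9% in bins of 500 bp (39.1%) and 0 in bins of 2 kb (15.4%). With at least 5 and 10 reads, dyads on both strands came to 42.7% and 32.2%, CH cytosines to 4.21% and 1.94%, and the median to 13 and 17 reads. Relative to the flanks, Gdf3 (0.340) had 0.204 with at least 10 reads, 0.595 with each cytosine counted once, 0.417 and 0.410 with limits moved out and in by 500 bp. Dppa3 (1.17) had 0.613, 2.15, 1.03 and 1.5 in that order. Nanog (1.56) had 1.41 with each cytosine counted once, 1.68 with a weight of 0.5 for 2CG and 2CH, and 1.67 with limits moved in. Chosen after seeing the data, flanks of 250 kb and 1 Mb gave 0.213 and 0.616 for Gdf3, 0.731 and 2.12 for Dppa3, and 0.977 and 2.83 for Nanog. Gdf3 was thus below its flanks in each of these, while Dppa3 and Nanog were above or below depending on the flanks, and Dppa3 also on the minimum count. The cause was not tested. Of 52 further comparisons of single elements, 34 stayed within their counting interval and 18 moved, among them the enhancer windows with each cytosine counted once.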
